A study of Mus musculus with 20 samples.

Results

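The 10 genes Atoh1, Barhl1, Barhl2, Pax6, Neurod1, Neurod2, Meis1, Meis2, Insm1 and Etv1 encode transcription factors of the cerebellar granule neuron lineage. They were picked by symbol, and all 10 were found among the 24411 genes of the table. Their expression was measured by RNA sequencing in cultured mouse cerebellar granule neurons, the small glutamatergic neurons of the cerebellar cortex. In the first group, called active rescue, cells received an shRNA against mouse Kdm6b together with an active enzymatic domain of human KDM6B. The dead rescue group received the same shRNA with a catalytically dead form of that domain, and the shKdm6b group received the shRNA alone. The control group stood against these 3, and the labels do not state what its cells were infected with. The study gives 1 schedule, with infection on day 1 in vitro, the antimitotic AraC on day 2 and RNA harvest on day 7, and states no other for control. Groups were of 5 libraries each, and a number from 1 to 5 marks every library. No label names a promoter for the domains or the shRNA, a strain or an age. Nor is it said that libraries are from different cultures or mice, and the p-values therefore reflect only the spread between these libraries, which may be technical.

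Granule neurons descend from Atoh1-expressing precursors of the rhombic lip, which divide in the external granule layer, leave the cell cycle, migrate inward and mature. Barhl, Pax6, Meis and Insm1 factors are known from the precursor and migrating stages in mouse, Neurod1 and Neurod2 from differentiation and survival, and Etv1 from the late, activity-dependent maturation program. Kdm6b encodes a demethylase that removes repressive methyl groups from lysine 27 of histone H3, a mark that Polycomb complexes place on many developmental transcription factor genes. The study asked whether the enzymatic activity of KDM6B is enough to restore expression after the knockdown.

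Total estimated counts ran from 14200745 to 21179300 per library. Kdm6b, the targeted gene, held 37.9 to 112 CPM (counts scaled to library size) in shKdm6b libraries and 81.2 to 187 CPM in control libraries, and was lower in 5 of 5 pairs of the same number. Counts under Kdm6b averaged 212 ± 109 CPM in active rescue and 176 ± 92.2 CPM in dead rescue (SD, n = 5 each). In each rescue they exceeded shKdm6b in 5 of 5 pairs and control in 3 of 5. Reads of the human domain may be counted under mouse Kdm6b, and the endogenous transcript was not measured apart from it in the rescues. All 8 granule neuron markers had counts in each group, with a summed level of 1793 to 7352 CPM over the 20 libraries. Among libraries of other groups, each of the 20 libraries correlated best with one of its own number. Even so, some pairs of different number correlated more closely (r up to 0.571) than the least alike pair of one number (0.361). The nuclear RNA Malat1 stood at 4420 to 6890 CPM in numbers 1 to 3 against 217 to 997 CPM in numbers 4 and 5. The 4 libraries numbered 4, one in each group, stood apart, with granule marker sums of 1793 to 2906 CPM against 4261 to 7352 CPM in the other 16. Their astrocyte marker sums were 11679 to 15234 CPM against 2279 to 7116 CPM. Because numbers pair the libraries, each comparison was fitted with edgeR's quasi-likelihood test without pairing and again with the number as a block, called the paired fit here.

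Atoh1, the factor that defines granule precursors, was close to absent. It had 0 to 11 estimated counts per library, or 0 to 0.536 CPM, and 5 of the 20 libraries held 0, a count that allows up to 3. By group, 17 counts were summed over the 5 active rescue libraries, 8 over dead rescue, 9 over shKdm6b and 4 over control, and 11 of the 17 came from active rescue 1 alone. The gene did not pass the expression filter and was not tested, and a difference between groups was not detectable at this depth. The other 9 genes passed. Per kilobase of merged exons, their control levels ran from 0.26 CPM for Meis2, a homeobox paralogue of Meis1, to 187 CPM for Neurod1, a basic helix-loop-helix factor needed for granule neuron differentiation. Neurod2, a close relative of Neurod1, came next at 66.8 ± 18.0 CPM per kilobase (SD, n = 5 control libraries). Barhl2 at 19.7 ± 5.72 and Etv1 at 15.7 ± 9.05 CPM per kilobase were not separated beyond their spread. Pax6 stood at 8.70 ± 2.11, Barhl1 at 7.37 ± 1.05, Insm1 at 5.83 ± 1.69 and Meis1 at 5.27 ± 1.2 CPM per kilobase. These SDs are between libraries, and the order of genes within libraries was not tested. The lengths join the exons of all annotated transcripts, 13.3 kb for Etv1 and 2.31 kb for Barhl2, and not those of the transcripts present. The order depends on this divisor. Undivided, control means were 209 CPM for Etv1 and 45.7 CPM for Barhl2.

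**Figure D1:**
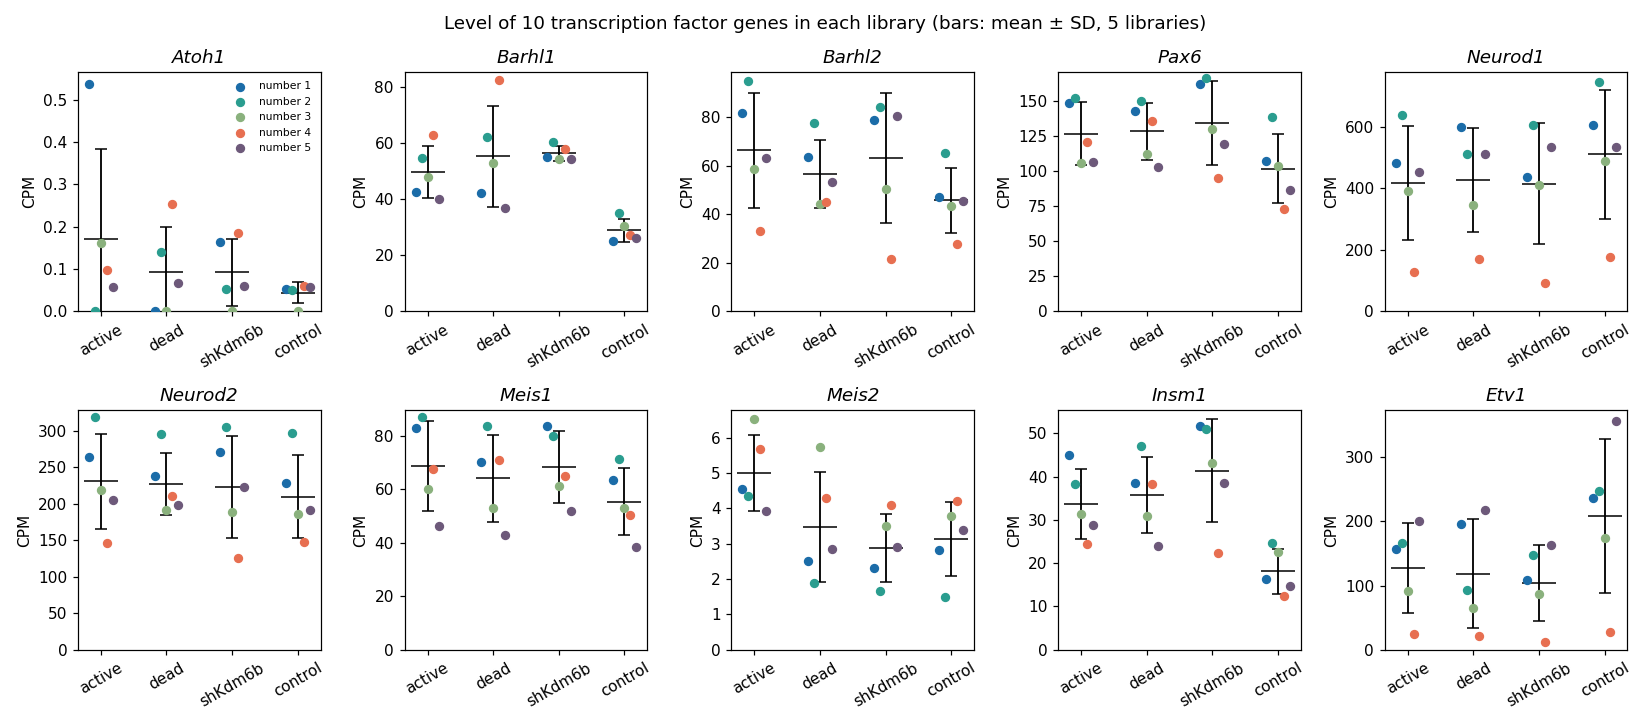
Level of each of the 10 genes in CPM (y axis, linear, from 0) in the 5 libraries of active rescue, dead rescue, shKdm6b and control, colored by replicate number, with the mean and SD of each group. Barhl1 lies at 36.8 to 82.3 CPM in the 15 shRNA libraries, above the 24.9 to 35.0 CPM of control, while the libraries numbered 4 are the lowest for Neurod1 and Etv1 in each group.

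The 4 promoters printed here belong to genes that moved in the knockdown, 3 upward (Barhl1, Pax6, Meis1) and 1 downward (Etv1). Each is the 250 bases before a transcription start in the RefSeq table for GRCm38.p6, read 5′ to 3′ on the gene's strand. That table held 9 of the 10 genes and lacked Insm1, which also rose in the knockdown. Capitals mark E-boxes (CANNTG, the core that NEUROD and ATOH1 factors bind with their partners, which reads alike on both strands). The Barhl1 window lies at chr2:28916669-28916918 on the minus strand, just upstream of the gene, Pax6 at chr2:105668646-105668895 on the plus strand, Meis1 at chr11:19018970-19019219 on the minus strand and Etv1 at chr12:38779832-38780081 on the plus strand. The table gives 2 starts each for Barhl1, Pax6 and Etv1, of which 1 is shown, and the Etv1 window lies inside the gene as GENCODE annotates it.
Barhl1: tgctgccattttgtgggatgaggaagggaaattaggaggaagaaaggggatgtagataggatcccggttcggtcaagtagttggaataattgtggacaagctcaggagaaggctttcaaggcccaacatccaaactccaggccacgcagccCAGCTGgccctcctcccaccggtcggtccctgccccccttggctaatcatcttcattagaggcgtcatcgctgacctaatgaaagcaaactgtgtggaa
Pax6: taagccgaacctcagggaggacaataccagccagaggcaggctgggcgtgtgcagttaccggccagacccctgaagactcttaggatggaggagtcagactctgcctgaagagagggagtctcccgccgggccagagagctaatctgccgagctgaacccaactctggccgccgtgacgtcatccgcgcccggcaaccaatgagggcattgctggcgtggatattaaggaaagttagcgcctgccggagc
Meis1: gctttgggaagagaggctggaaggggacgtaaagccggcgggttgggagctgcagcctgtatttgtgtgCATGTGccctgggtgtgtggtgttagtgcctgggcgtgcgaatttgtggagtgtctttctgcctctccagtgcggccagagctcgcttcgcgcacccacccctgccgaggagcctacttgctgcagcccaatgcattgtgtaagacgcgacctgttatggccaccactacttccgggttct
Etv1: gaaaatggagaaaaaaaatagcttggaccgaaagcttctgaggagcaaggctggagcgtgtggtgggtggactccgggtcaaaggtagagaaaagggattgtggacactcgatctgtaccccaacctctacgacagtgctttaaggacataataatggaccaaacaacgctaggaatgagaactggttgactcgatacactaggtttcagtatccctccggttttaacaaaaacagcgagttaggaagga
Barhl1 held 1 E-box (CAGCTG) and Meis1 held 1 (CATGTG), and no CANNTG occurred in the Pax6 and Etv1 windows. An E-box of any kind occurred in 66.2% of the 32851 promoters of the table, and CAGCTG, one form of CANNTG, in 13.0%. The MEIS half-site TGACAG, searched on both strands, was in none of the 4 windows and in 15.9% of all promoters. The ETS core CCGGAA, also searched on both strands, occurred once, in Meis1, and in 12% of all promoters. CpG pairs numbered 7 in Barhl1, 15 in Pax6, 13 in Meis1 and 9 in Etv1, against a median of 6 over all promoters. Barhl2, with 36, had the most of the 9 windows. These matches describe the letters of the windows and are not measured binding sites.

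In shKdm6b cultures, Barhl1, Insm1, Pax6 and Meis1 rose and Etv1 fell against control in the paired edgeR fit (adjusted p under 0.05), while Barhl2, Neurod1, Neurod2 and Meis2 did not pass. In the fit without pairing none of the 9 passed, where 1 of 15284 genes (0.00654%) did and 477 had an unadjusted p under 0.05. DESeq2 without pairing called 64 genes, Barhl1 and Insm1 among them. In the paired fit 1.72% of all genes were called higher and 2.41% lower, beside 4 of 9 tested members higher and 1 lower. The median log2 fold change of the 9 was 0.31, beside 0.01 over all genes. The members were chosen with earlier results of these data known, so these values beside those of all genes are no independent test. In bulk RNA, a change in the number of cells that carry a transcript and a change in RNA per cell cannot be told apart.

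Barhl1, a BarH-like homeobox factor of granule precursors and migrating granule neurons, had 54.9, 60.3, 54.3, 57.7 and 54.2 CPM in shKdm6b libraries 1 to 5, against 24.9, 35.0, 30.6, 27.3 and 26.1 CPM in control libraries 1 to 5. Every knockdown library lay above every control library, the knockdown values differed little among themselves, and the library numbered 4 did not depart from the rest. The means were 56.3 ± 2.65 and 28.8 ± 4.09 CPM (SD, n = 5 each), and the pairs differed by 1.72 to 2.21 times. The paired edgeR fit gave a log2 fold change of 0.98 ± 0.13 (SE; adjusted p = 0.000355), against 0.97 ± 0.18 without pairing (adjusted p = 0.0715). The gene occupies 28907679 to 28916668 of chromosome 2 on the minus strand (GRCm38, the build also called mm10, GENCODE annotation, whole gene).

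Insm1, a zinc finger factor that acts as cells turn from dividing progenitors into neurons, had 51.8, 51, 43.1, 22.4 and 38.6 CPM in shKdm6b libraries, against 16.4, 24.6, 22.5, 12.3 and 14.7 CPM in control libraries. The groups overlapped only through shKdm6b 4, which at 22.4 CPM sat below controls 2 and 3, yet above control 4. The library numbered 4 was the lowest in both groups. Means were 41.3 ± 12 and 18.1 ± 5.24 CPM (SD, n = 5 each), with pair ratios of 1.82 to 3.17. This came to a log2 fold change of 1.18 ± 0.17 in the paired edgeR fit (SE; adjusted p = 0.000741) and of 1.19 ± 0.25 without pairing (adjusted p = 0.115). Insm1 is a gene of chromosome 2 as well, at 146221921 to 146225020 on the plus strand.

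Pax6, a paired-box factor present from granule precursors to postmitotic granule neurons, had 162, 166, 130, 95 and 119 CPM in shKdm6b libraries, against 107, 138, 104, 73.2 and 86.3 CPM in control libraries. The groups overlapped, while each knockdown library exceeded the control of its number, by 1.2 to 1.52 times. Its paired edgeR log2 fold change was 0.41 ± 0.11 (SE; adjusted p = 0.0426). Meis1, a TALE-class homeobox factor of the same stages, had 83.9, 80.1, 61.2, 64.9 and 52.0 CPM in shKdm6b libraries, against 63.6, 71.5, 53.1, 50.6 and 38.6 CPM in control libraries. Here too the groups overlapped and all 5 pairs rose, by 1.12 to 1.35 times, with a paired edgeR log2 fold change of 0.31 ± 0.08 (SE; adjusted p = 0.0257). Each of these calls was lost in 7 of 10 paired edgeR fits that left out 1 library, with adjusted p of up to 0.171 for Pax6 and 0.12 for Meis1, both without shKdm6b 1. Pax6 kept its call without shKdm6b 4, control 2 or control 3, and Meis1 without shKdm6b 2, shKdm6b 4 or control 3. Meis1 overlaps Gm37818 on its own strand, so some reads may be shared. It also overlaps an antisense gene, Gm16140, whose reads cannot be told apart where strand was not used in counting.

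Etv1, an ETS factor of granule neuron maturation, moved the other way. Its levels were 108, 148, 87.3, 12.4 and 163 CPM in shKdm6b libraries, against 237, 248, 173, 28.3 and 356 CPM in control libraries. The library numbered 4 was far below the others in both groups, and the groups overlapped, but each knockdown library held 0.438 to 0.597 times the level of its numbered control. Paired edgeR gave a log2 fold change of -1.02 ± 0.18 (SE; adjusted p = 0.00383). Unpaired, the value was -1.01 with an SE of 0.70 (adjusted p = 1). It spans 38779380 to 38870484 of chromosome 12 on the plus strand. Barhl1, Insm1 and Etv1 were called in each of the 10 paired fits that left out 1 library of the 2 groups, with adjusted p of at most 0.0027, 0.00474 and 0.0191.

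**Figure D2:**
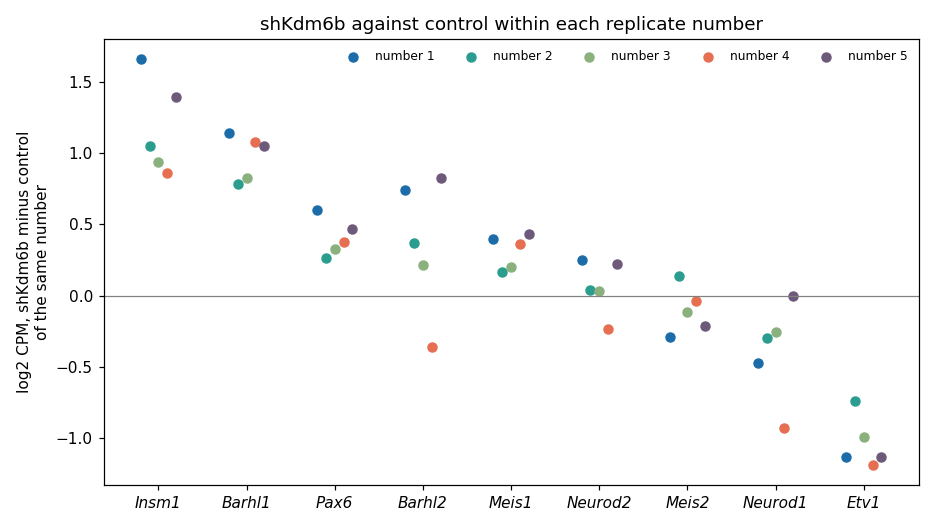
Difference in log2 CPM, shKdm6b minus control of the same number (y axis), for the 9 tested genes (x axis), with 1 point for each replicate number. All 5 points lie above 0 for Insm1, Barhl1, Pax6 and Meis1 and below 0 for Etv1. The pair numbered 4 is the lowest for Barhl2, Neurod2 and Neurod1, and also for Insm1 and Etv1.

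The 4 genes that did not pass differed among themselves. Barhl2, the paralogue of Barhl1, had 78.7, 84.0, 50.5, 21.6 and 80.4 CPM in shKdm6b libraries, against 47.0, 65.0, 43.5, 27.8 and 45.2 CPM in control libraries. It was higher in 4 of 5 pairs and lower in the pair numbered 4, with a paired edgeR log2 fold change of 0.39 ± 0.16 (SE; adjusted p = 0.245). Without the 4 libraries numbered 4 the value was 0.52 with an adjusted p of 0.00285, and without shKdm6b 4 alone it was also called (adjusted p = 0.0232). Neurod1 had 436, 607, 410, 92.1 and 533 CPM in shKdm6b libraries, against 604, 746, 490, 176 and 534 CPM in control libraries. It was lower in 5 of 5 pairs, although the pair numbered 5 was nearly equal, and its paired edgeR log2 fold change was -0.37 ± 0.13 (SE; adjusted p = 0.165). Neurod1 overlaps Cerkl on its own strand and Gm26755 on the other, so some reads may be shared. Neurod2, also a granule neuron survival factor in mouse, averaged 223 ± 70.3 CPM in shKdm6b and 210 ± 56.4 CPM in control (SD, n = 5 each), with a 95% interval of the paired log2 fold change from -0.16 to 0.30. Meis2 averaged 2.89 ± 0.96 CPM in shKdm6b and 3.14 ± 1.04 CPM in control, with an interval from -0.51 to 0.28.

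The 4 libraries numbered 4 were low in Etv1 and Neurod1 and not in Barhl1. Across all groups they held 12.4 to 28.3 CPM of Etv1 against 65.1 to 356 CPM in the other 16 libraries, and 92.1 to 176 CPM of Neurod1 against 344 to 746 CPM. For Barhl1, 27.3 to 82.3 CPM lay across the 24.9 to 61.9 CPM of the others. The low granule and high astrocyte marker sums given above moved with these levels, and their part in them was not tested. Leaving out these 4 libraries, the paired edgeR log2 fold changes of shKdm6b against control were 0.93 for Barhl1, 1.22 for Insm1, 0.39 for Pax6, 0.28 for Meis1 and -1.01 for Etv1, each called, with Barhl2 added. With numbers 1 to 3 alone, 4 members were called (Barhl1, Barhl2, Pax6 and Insm1), and Etv1 at -0.93 (adjusted p = 0.0568) and Meis1 at 0.26 (adjusted p = 0.17) did not pass in paired edgeR. With numbers 4 and 5 alone, 2 libraries a group, no gene of the whole table was called, and the members' log2 fold changes were 1.06 for Barhl1, 1.15 for Insm1, 0.42 for Pax6, 0.39 for Meis1 and -1.16 for Etv1.

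Variance of log2 CPM over the 20 libraries divided differently between number and group. For Barhl1, group accounted for 69.9% and number for 18.2%, and for Insm1 60.7% and 24.7%. For Neurod1 the order was turned round, with 3.26% for group and 92.0% for number, and Etv1 had 8.92% and 87.4%. Meis1 (14.1% and 80.5%) and Barhl2 (11.1% and 72.7%) also varied mostly with number, and Pax6 (26.9% and 54.0%) and Meis2 (32.2% and 55.2%) stood between.

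**Figure D3:**
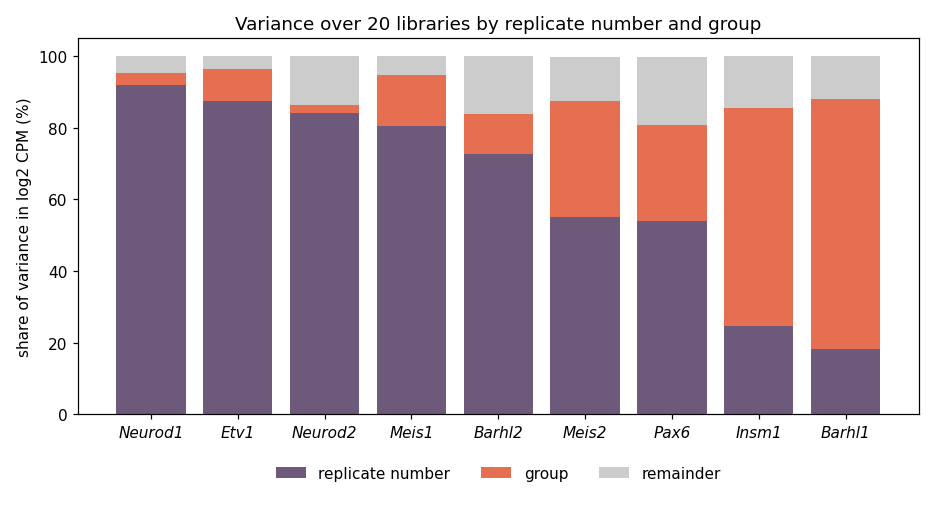
Share of the variance in log2 CPM over 20 libraries (y axis, percent) that goes with replicate number, with group and with neither, for the 9 tested genes (x axis). The group share is 69.9% for Barhl1 and 60.7% for Insm1, and 2.28% for Neurod2.

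Across the 20 libraries, with number means removed and group means kept, Barhl1 and Insm1 had a Pearson r of 0.953 on log2 CPM, Pax6 and Insm1 0.922, and Barhl1 and Pax6 0.907. Neurod1 and Etv1 had an r of 0.805, and Barhl1 and Etv1 of -0.74. The libraries share groups, so these values hold the differences between groups, and they describe these libraries only. Among 11713 genes of at least 5 CPM on average, the pattern of Barhl1 was most like that of Camk2a, a synaptic kinase subunit (r = 0.973), of Hrk, a proapoptotic BH3 protein gene (0.969), and of Rit2, a neuronal small GTPase (0.966). The genes nearest to Insm1 were Kcnc4, a potassium channel (0.956), Celf6, an RNA-binding protein gene (0.955), and Barhl1. Kcnc4 was also nearest to Meis1 (0.964), followed by Hrk (0.928) and Dcaf12l1 (0.917). Nearest to Pax6 were Syt1, the synaptic vesicle calcium sensor (0.970), Satb1, a chromatin organizer (0.962), and Mcam, a cell adhesion molecule (0.962). Nearest to Etv1 was Foxn2, a forkhead gene (0.963).

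In active rescue cultures, which carry the knockdown with the active domain, Barhl1, Insm1 and Meis1 rose against control in the paired edgeR fit. No member fell by that test. None of the 15284 genes (0%) was called without pairing, where 387 had an unadjusted p under 0.05 and DESeq2 called 25, and 1.09% were called higher and 0.87% lower in the paired fit. Barhl1 had 42.3, 54.7, 47.9, 62.7 and 40.0 CPM in active rescue libraries, against 24.9 to 35.0 CPM in control libraries, so the groups did not overlap. Its mean was 49.5 ± 9.29 CPM (SD, n = 5) and its paired edgeR log2 fold change 0.77 ± 0.13 (SE; adjusted p = 0.00438). Insm1 had 44.9, 38.4, 31.2, 24.5 and 28.8 CPM in active rescue libraries, all but 1 above the 24.6 CPM of the highest control. Its paired edgeR log2 fold change was 0.90 ± 0.17 (SE; adjusted p = 0.0105). Meis1 averaged 68.9 ± 16.8 CPM in active rescue and 55.5 ± 12.6 CPM in control, higher in 5 of 5 pairs (0.30 ± 0.08, paired edgeR, adjusted p = 0.048). The call on Meis1 was kept in 1 of 10 fits that left out 1 library, that without control 3. The log2 fold changes of Pax6 (0.33 ± 0.11, adjusted p = 0.153), Etv1 (-0.63 ± 0.18, adjusted p = 0.0917) and Barhl2 (0.50 ± 0.16, adjusted p = 0.147) did not pass in the paired edgeR fit, although all 5 pairs shared a direction for each. Without the libraries numbered 4, Barhl2 (0.54, adjusted p = 0.00441) and Etv1 (-0.75, adjusted p = 0.0462) were called in that fit as well.

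In dead rescue cultures, which carry the knockdown with the dead domain, Barhl1 and Insm1 rose and Etv1 fell against control in the paired edgeR fit. None of the 15284 genes (0%) was called without pairing, where 276 had an unadjusted p under 0.05 and DESeq2 called 17, and 0.576% were called higher and 0.608% lower in the paired fit. Barhl1 had 42.3, 61.9, 52.6, 82.3 and 36.8 CPM in dead rescue libraries, each above the 35.0 CPM of the highest control, with the library numbered 4 the highest of all 20. Paired edgeR gave a log2 fold change of 0.90 ± 0.13 (SE; adjusted p = 0.0027), or of 0.70 when the libraries numbered 4 were left out (adjusted p = 0.000857). Insm1 had 38.6, 47.0, 31.0, 38.3 and 24.0 CPM in dead rescue libraries, with the library numbered 5 alone below the highest control. Its paired edgeR log2 fold change was 1.01 ± 0.17 (SE; adjusted p = 0.00782). Etv1 had 196, 92.5, 65.1, 21.6 and 218 CPM in dead rescue libraries, a wide spread. As ratios, libraries 2 and 3 lay far below their controls and library 1 nearest to its own. Paired edgeR gave -0.81 ± 0.18 on the log2 scale (SE; adjusted p = 0.0412). That call was kept in 1 of 10 fits that left out 1 library, that without dead rescue 1. Pax6 at 0.36 ± 0.11 (adjusted p = 0.144) and Meis1 at 0.20 ± 0.08 (adjusted p = 0.274) did not pass in that fit.

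The 3 comparisons with control share the control libraries, so their values are not independent of one another. Barhl1 stood at 0.77, 0.90 and 0.98 in active rescue, dead rescue and shKdm6b, Insm1 at 0.90, 1.01 and 1.18, and Etv1 at -0.63, -0.81 and -1.02 on the log2 scale of the paired fit. When only the 2 groups compared entered the paired edgeR fit, the 5 members remained called in shKdm6b, and 0 members were called in either rescue. In those fits 2 genes of the whole table were called in active rescue and 45 in dead rescue, and Barhl1 had a log2 fold change of 0.75 in active rescue (adjusted p = 0.104) and 0.89 in dead rescue (adjusted p = 0.0776).

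**Figure D4:**
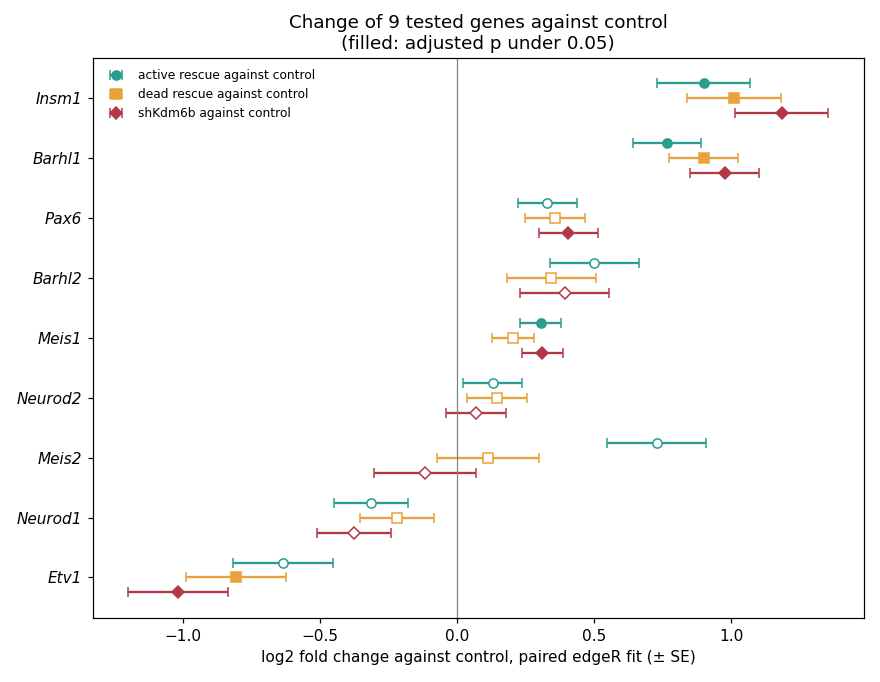
Log2 fold change against control in the paired edgeR fit with its SE (x axis) for the 9 tested genes (rows), in active rescue, dead rescue and shKdm6b, with filled marks for an adjusted p under 0.05. Barhl1 and Insm1 are filled in all 3 comparisons at 0.77 to 1.18, while Meis2 stands at 0.73 in active rescue, 0.11 in dead rescue and -0.12 in shKdm6b, all open.

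Among the 3 shRNA groups no member was called in edgeR with or without pairing, in comparisons where almost nothing else was. Active rescue against shKdm6b had 0% of genes called without pairing (50 with an unadjusted p under 0.05) and 0.00654% in the paired fit. Dead rescue against shKdm6b had 0% in both (25 with an unadjusted p under 0.05 without pairing), and active against dead rescue had 0% without pairing (37) and 0.00654% in the paired fit. The paired fits had 577, 214 and 415 genes with an unadjusted p under 0.05, in the same order. DESeq2 called 0 genes in each of the 3 without pairing, and 21, 0 and 3 with it. For Barhl1, the paired log2 difference of active rescue from shKdm6b was -0.21 (95% interval -0.47 to 0.05) and that of dead rescue -0.08 (-0.34 to 0.19). For Insm1 the differences from shKdm6b were -0.28 (-0.64 to 0.07) with the active and -0.17 (-0.53 to 0.18) with the dead domain. For Etv1 they were 0.38 (-0.0002 to 0.77) and 0.21 (-0.18 to 0.60), so both intervals hold 0 and neither shows that the rescues equal the knockdown. Active and dead rescue differed by -0.13 (-0.40 to 0.13) for Barhl1, -0.11 (-0.46 to 0.24) for Insm1 and 0.17 (-0.21 to 0.56) for Etv1. Pax6, Meis1, Barhl2, Neurod1 and Neurod2 differed by -0.11 to 0.16 in these 3 comparisons.

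Meis2, the least expressed of the tested members, had the largest log2 fold change of the 9 in active rescue against shKdm6b and against dead rescue, while against control Insm1 and Barhl1 exceeded it. It had 4.54, 4.36, 6.52, 5.67 and 3.91 CPM in active rescue libraries, against 2.52, 1.88, 5.75, 4.30 and 2.85 CPM in dead rescue, 2.30, 1.65, 3.49, 4.09 and 2.91 CPM in shKdm6b and 2.83, 1.5, 3.78, 4.19 and 3.39 CPM in control. The active rescue library was the highest of its number in all 5 numbers, and the groups overlapped. Against shKdm6b the paired edgeR log2 fold change was 0.84 (unadjusted 95% interval 0.46 to 1.23, adjusted p = 0.389), against dead rescue 0.61 (0.23 to 1.00, adjusted p = 0.993), and against control 0.73 (0.34 to 1.11, adjusted p = 0.0503). None passed after adjustment over all genes. Against control it passed without active rescue 4 or active rescue 5, with an adjusted p of down to 0.0368 in paired edgeR. The paired DESeq2 fit called Meis2 against shKdm6b (adjusted p = 0.0277) and against control (adjusted p = 0.0122). The counts behind it were 487 summed over active rescue, 300 over dead rescue, 281 over shKdm6b and 277 over control.

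**Figure D5:**
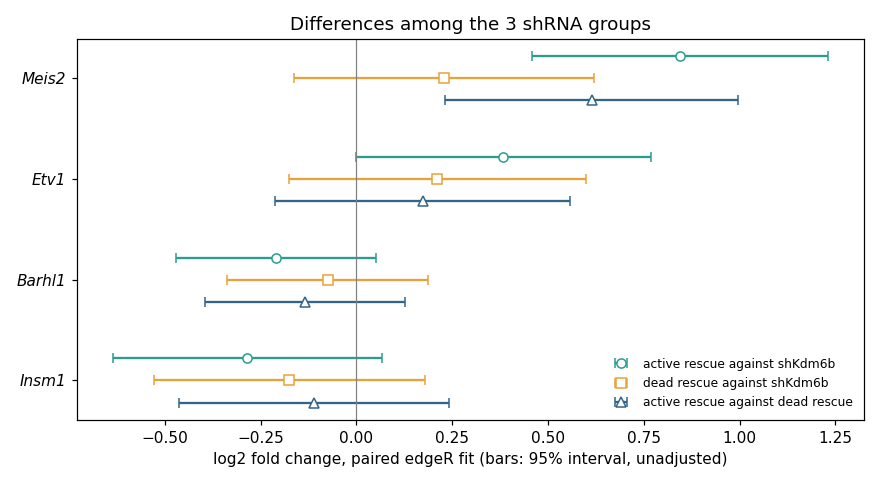
Paired edgeR log2 fold change with its unadjusted 95% interval (x axis) of active rescue against shKdm6b, dead rescue against shKdm6b and active against dead rescue, for the 4 members with the largest differences of active rescue from shKdm6b (rows). No comparison passed an adjusted p of 0.05, and the Meis2 intervals that involve active rescue, 0.46 to 1.23 and 0.23 to 1.00, lie above 0.

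Other transcription factors of the lineage (Zic, Nfi, Gli, Mef2 and Sox genes among them, 22 listed and 21 tested) had 0 higher and 2 lower in shKdm6b against control in the paired edgeR fit, with a median log2 fold change of 0.005. Over all genes 1.72% were called higher and 2.41% lower in that fit, and without pairing no gene of this list or of the next 3 was called. Nfic, a nuclear factor I gene active in maturing granule neurons, averaged 233 CPM in shKdm6b and 319 CPM in control (-0.46 ± 0.10, adjusted p = 0.0107). Nfia, of the same family, averaged 126 CPM in shKdm6b and 164 CPM in control, and its groups did not overlap (-0.38 ± 0.09, adjusted p = 0.0285). Mycn, a driver of precursor proliferation, was at 11.2 CPM in shKdm6b and 6.48 CPM in control (0.79 ± 0.24, adjusted p = 0.0801), and Zic4 at 117 and 93.1 CPM (0.33 ± 0.10, adjusted p = 0.0865), neither passing in edgeR. Of 14 paralogues and DNA-binding partners of the members (Pbx, Pknox, Etv, E-protein genes), 12 were tested and 0 called, with a median of -0.05. Etv5, a relative of Etv1, stood at 0.12 ± 0.09, and Pbx3, a partner of MEIS proteins, at 0.14 ± 0.09. Pknox2 at -0.11 ± 0.12 and Neurod6 at -0.53 ± 0.27 (paired edgeR adjusted p = 0.384) were lower in 4 of 5 pairs each. Neurod6 was little expressed, at 0.968 CPM in shKdm6b and 1.44 CPM in control.

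Of 12 genes of proliferating or migrating precursors, 1 rose and 1 fell in the paired edgeR fit of shKdm6b against control (1.72% and 2.41% over all genes), with a median of 0.07. Nnat, a proteolipid of young neurons, averaged 114 CPM in shKdm6b and 69.3 CPM in control (0.72 ± 0.11, paired edgeR adjusted p = 0.00087). Cntn2, an adhesion molecule of premigratory granule neurons, averaged 291 CPM in shKdm6b and 387 CPM in control (-0.54 ± 0.13, paired edgeR adjusted p = 0.0251). Of 11 genes of mature granule neurons 0 rose and 5 fell in that fit, beside the same shares over all genes, with a median of -0.27. The lists, like the members, were chosen with earlier results of these data known. Cbln3, a granule neuron cerebellin, changed by -0.77 ± 0.13 (paired edgeR adjusted p = 0.00183), and Grin2c, an NMDA receptor subunit, by -1.47 ± 0.28 (adjusted p = 0.00543). Tiam1, a Rac exchange factor, changed by -0.50 ± 0.10 (paired edgeR adjusted p = 0.00952). Nearer the threshold were Gabrd, an extrasynaptic GABA receptor subunit, at -1.59 ± 0.41 (paired edgeR adjusted p = 0.0361), and Slc17a7, a vesicular glutamate transporter, at -0.95 ± 0.26 (adjusted p = 0.0444). Grin2c averaged 23.2 CPM in shKdm6b and 58.3 CPM in control, lower in 5 of 5 pairs. Grin2c and Tiam1 are known in mouse granule neurons as genes that depend on Etv1, and a part of Etv1 in their changes here was not tested. In active rescue against control the mature list had 0 higher and 0 lower, and in dead rescue 0 higher and 1 lower (Grin2c). The precursor list had Nnat alone called, higher, in both. Fewer genes of the whole table were called in these comparisons too, 1.09% higher and 0.87% lower in active rescue and 0.576% and 0.608% in dead rescue, and the difference between comparisons was not tested for these lists.

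Marker sums of other cells in the knockdown are given as values without a test, and their part in the members' changes was not tested. The summed level of 10 cycling cell markers, all with counts in each group, was lower in 5 of 5 pairs, at 188 to 524 CPM in shKdm6b and 195 to 630 CPM in control. The 4 unipolar brush cell markers, all with counts, summed to 32.5 to 52.3 CPM in shKdm6b and 30.4 to 49.0 CPM in control, higher in 5 of 5 pairs by 1.08 times in the mean. The 4 cerebellar nuclear markers summed to 6.67 to 44.7 CPM in shKdm6b and 5.79 to 36.8 CPM in control, higher in 5 of 5 pairs, almost all of it Slc17a6, while Lhx9 and Lhx2 were at 0 in some libraries and Tbr1 averaged 0.976 CPM over all libraries. The 6 GABAergic interneuron markers summed to 114 to 304 CPM in shKdm6b and 148 to 382 CPM in control, and the 5 fibroblast markers to 3386 to 17984 and 3500 to 23582 CPM, each lower in 5 of 5 pairs. Within the interneuron list Pax2 was called higher and Gad1 and Slc32a1 lower in the paired edgeR fit. The 7 microglia markers summed to 143 to 297 CPM in shKdm6b and 113 to 957 CPM in control, higher in 2 of 5 pairs, and control 4 alone held the 957 CPM, above the 373 CPM of the next control. The 8 oligodendrocyte markers summed to 93.1 to 687 CPM in shKdm6b and 78.4 to 839 CPM in control, higher in 2 of 5 pairs, and the 4 endothelial markers to 66.2 to 156 and 56.6 to 144 CPM, higher in 4 of 5. Astrocyte marker sums were 2279 to 13911 CPM in shKdm6b and 2458 to 15234 CPM in control, higher in 2 of 5 pairs. Granule neuron markers summed to 1793 to 6888 CPM in shKdm6b and 2595 to 7352 CPM in control, higher in 1 of 5 pairs. Within that list Slc17a7 and Cbln3, also on the mature list above, were called lower in the paired edgeR fit, and the other 6 were not called. The 6 Purkinje cell markers summed to 29.49 to 92.67 CPM in shKdm6b and 32.78 to 90.96 CPM in control, higher in 1 of 5 pairs. Among them Itpr1 ran from 24.61 to 85.32 CPM and Calb1 from 3.71 to 13.02 CPM over all 20 libraries. The other 4 averaged under 1 CPM in each group, and of these Pcp2 was at 0 in all 20 libraries. In the rescues against control, cycling cell markers were lower in 5 of 5 pairs with the active domain (0.785 times in the mean) and in 4 of 5 with the dead domain (0.857 times). Cerebellar nuclear markers were higher in 5 of 5 pairs in both, by 1.18 and 1.24 times.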

How the data were processed

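Column-purified RNA was sequenced as 20 libraries (4 groups of 5), per the labels. The values are estimated counts per gene symbol, deposited by the authors as 1 table whose name gives salmon. The submitters' processing notes name mm10. The salmon version, annotation and strand setting were not given in the sources used here. Between 7.03 and 11.2% of values in a library were not whole. No columns were identical, and the chi-square per degree of freedom between libraries within groups was 27.9 to 395, where sampling noise alone gives about 1.

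Counts were rounded and filtered with filterByExpr, leaving 15284 genes, scaled with TMM and tested with edgeR 4.0.16 (quasi-likelihood, robust, two-sided, R 4.3.3), all 20 libraries in 1 fit and Benjamini-Hochberg adjustment over all genes at 0.05. The design set down had no replicate block. Deviations from group means correlated in all 30 pairs that share a number (r 0.361 to 0.881, limit 0.1). The highest r among the 120 pairs that differ in number and group was 0.571, so the ranges overlapped. Among libraries of other groups, 20 of 20 correlated best with one of their own number. The fit with the number as a block is therefore given as the paired fit. The pairing comes from this check, not from the labels. Alternatives were DESeq2 1.42.0, RLE factors, no filter, the 2 groups alone, and leaving out libraries. CPM uses TMM-scaled library sizes and log2 CPM a prior count of 1. Intervals are unadjusted.

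Members and lists were chosen with earlier results of these data known. The named genes are all 10 members, Kdm6b, up to 4 genes a list with the smallest adjusted p in shKdm6b against control (Slc17a7 was named beyond the 4, after its value was seen), and the 3 genes most like each called member, of which some are not reported here. In the rescue comparisons, the 4 members with the largest difference of active rescue from shKdm6b are given singly, a choice made after seeing the values. The scripts were tested on simulated data. Coordinates are those of the GENCODE annotation of GRCm38.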

Additional observations from a re-analysis of the deposited data

Results flagged for a closer look

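Of 36 groups of 5 libraries (9 tested genes in 4 groups, log2 CPM), 3 held a library whose gap to its nearest neighbour took more than 0.71 of the group's range, a limit that chance passes in about 1 in 20 groups. All 3 were libraries numbered 4. Etv1 was at 12.38 CPM in shKdm6b 4 (gap 0.758 of the range) and at 28.29 CPM in control 4 (0.715), and Neurod1 was at 92.06 CPM in shKdm6b 4 (0.793). Granule neuron markers summed to 1793 to 2906 CPM and astrocyte markers to 11679 to 15234 CPM in the 4 libraries of that number, and their part in these low values was not tested. Without these 4 libraries the paired edgeR log2 fold change of Etv1 in shKdm6b against control was -1.01 (adjusted p = 0.00656), and that of Neurod1 was -0.28 (adjusted p = 0.153).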

How the results depend on the processing

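Members called depended on the pairing. In shKdm6b against control, 0 were called without the replicate block by edgeR and 2 by DESeq2 (Barhl1 and Insm1), and 5 with the replicate block, also with DESeq2, RLE factors, no filter or the 2 groups alone, 6 without number 4 and 4 with numbers 1 to 3. In active rescue against control, 0 became 3 with the replicate block, 5 with paired DESeq2, 2 with RLE factors or no filter (Meis1 lost), 5 without number 4 and 3 with numbers 1 to 3. In dead rescue against control, DESeq2 called 1 without the block (Barhl1), and 3 were called with the replicate block, with DESeq2, RLE factors, no filter or without number 4, and 2 with numbers 1 to 3. Paired DESeq2 called 1 member, Meis2, in active rescue against shKdm6b. Leaving out 1 library at a time, with and without the block, gave 0 to 6 calls in shKdm6b, 0 to 3 in active rescue and 0 to 3 in dead rescue.

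Small differences changed sign. With the block, Meis2 in dead rescue against control was -0.12 with numbers 4 and 5, Etv1 in dead rescue against shKdm6b -0.037 with numbers 1 to 3, Insm1 in that comparison 0.064 with numbers 4 and 5, and Insm1 in active against dead rescue 0.044 without number 4. Leaving out single libraries, over fits with and without the block together, Neurod2 ran from -0.077 to 0.244 in shKdm6b, -0.0085 to 0.29 in active rescue and -0.0094 to 0.27 in dead rescue against control, and Meis2 from -0.30 to 0.00495 in shKdm6b and -0.12 to 0.30 in dead rescue. Against shKdm6b, dead rescue ran from -0.217 to 0.0874 for Barhl1, -0.0031 to 0.42 for Meis2 and -0.14 to 0.46 for Etv1. Active against dead rescue ran from -0.272 to 0.0322 for Barhl1, -0.22 to 0.0918 for Insm1 and -0.16 to 0.45 for Etv1. With the block kept, no such fit changed the sign of Neurod2 in these comparisons, of Meis2 in shKdm6b against control or dead rescue against shKdm6b, or of Etv1. None of these differences was called in edgeR, and the cause was not tested. Over all genes, shKdm6b against control had 1 call without the block, 64 with DESeq2, 632 with the block, 944 with paired DESeq2, 1789 with the 2 groups alone, 990 without number 4, 445 with numbers 1 to 3 and 0 with numbers 4 and 5. The 2 libraries a group of that last fit limit what it can call.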
